A study of Mus musculus with 30 samples.

Results

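Caveolin and serum-response cytoskeletal genes were followed in the RNA-seq counts of mouse embryonic stem cells (ESCs) across media and passages and then across the first hours of a switch of medium. The set held 10 genes: the caveolins Cav1 and Cav2, the transcription factor gene Srf, and the actin and adhesion genes Acta2, Tagln, Cnn1, Cnn2, Tpm1, Myl9 and Vcl. They were selected on their names, with earlier results of these data known, and the measured values behind that choice are not recorded, so their levels across media and passages, which the selection names first, are given below as a description with no test. Whether time-course values also entered the choice is not recorded. Each was matched to 1 Ensembl gene in both count tables, among 52630 genes in the time-course table and 55487 in the passage table, and all 10 passed the filter on low counts in both.

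All samples were the E14tg2a line, a laboratory mouse ESC line for which the labels name no transgene or deletion, so every group is a culture of the same line. In the passage experiment the cells were kept for 10 or 20 passages (P10, P20) in Serum/LIF (SL, the standard serum medium with the cytokine LIF), in EMM (Enhanced Metabolic Media, the Serum/LIF formula with galactose supplied instead of glucose and pyruvate) or in 2i/LIF (LIF with inhibitors of the kinases MEK and GSK3), with 3 libraries in each of 6 groups. In the time course, cells in Serum/LIF (labelled 0 h) were compared with cells moved to EMM for 3, 9 and 24 h, with 3 libraries in each of 4 groups. The same Serum/LIF group serves as control for all 3 times. It is labelled 0 h, but the treatment protocol speaks of 24 h in Serum/LIF, so how long before harvest its medium was last changed is unclear. The part of fresh medium in the differences, those at 3 h above all, was not tested, and each fold against this control carries that limit.

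SRF is a transcription factor that binds a short DNA element called the CArG box, and it works with 2 kinds of partner. The MRTF proteins are held in the cytoplasm by monomeric actin and are released when actin polymerises, and they drive genes of the contractile cytoskeleton. The ternary complex factors, such as ELK1, are phosphorylated by the ERK kinases and drive immediate early genes such as Fos. Serum activates both routes, which is how the factor got its name. Caveolins are the membrane proteins that shape caveolae, the small pits of the plasma membrane, together with the cavins. ESCs in Serum/LIF are known as a mixed population in which some cells edge towards differentiation, and ESCs in 2i/LIF as a more uniform one in which MEK, the kinase upstream of ERK, is blocked.

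The promoters are shown first because the CArG box is the element through which SRF acts. RefSeq promoter windows (GRCm38.p6, 250 bases before to 50 bases after each transcript start) were given for 9 of the 10 genes, with 2 windows for Cav1 and none for Tagln. A complete CArG box (CC, then 6 bases that are A or T, then GG) was found in 4 of the 9 genes, against 1.81% of the 27025 genes with a window. The stretches below are written 5′ to 3′ on the gene's strand with the CArG boxes in capitals, and positions are counted from the transcript start, the base before it being -1.
Srf (chr17:46556195-46556264, minus strand, positions -102 to -33): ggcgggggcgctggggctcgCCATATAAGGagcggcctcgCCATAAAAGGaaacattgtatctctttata
Cnn2 (chr10:79988524-79988573, plus strand, positions -76 to -27): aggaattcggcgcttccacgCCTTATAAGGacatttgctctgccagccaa
Vcl (chr14:20929151-20929200, plus strand, positions -247 to -198): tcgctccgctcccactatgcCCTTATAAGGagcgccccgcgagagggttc
Myl9 (chr2:156775283-156775394, plus strand, positions -181 to -70): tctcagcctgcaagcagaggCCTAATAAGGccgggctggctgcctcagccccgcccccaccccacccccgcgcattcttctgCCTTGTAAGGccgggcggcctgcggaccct
The Srf stretch held 2 boxes, at -82 and -62. Cnn2 had 1 box at -56, Vcl 1 at -227 and Myl9 1 at -161. The second capital run of Myl9, at -99, is a CArG-like element in which 1 of the 6 core bases is G or C.

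Acta2 had no complete box in the window but 2 CArG-like elements, at -84 and -34. CArG-like elements were found in 9.69% of all genes with a window.
Acta2, first element (chr19:34255438-34255467, minus strand): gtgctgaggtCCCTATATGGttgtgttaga
Acta2, second element (chr19:34255388-34255417, minus strand): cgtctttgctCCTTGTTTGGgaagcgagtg
Both Acta2 stretches lie within an exon that GENCODE M21 annotates for a longer Acta2 transcript. Neither kind of element was found in the windows of Cav1, Cav2, Cnn1 or Tpm1, which says only that these letters are absent from 300 bases. The TEAD motif GGAATG, searched on both strands, was found in Acta2 at -146, Tpm1 at -56 and Vcl at -143, and in 16.6% of all genes. The AP-1 motif TGANTCA was found in Cav2 alone, at -92 (8.97% of all genes), and the SP1 motif GGGCGG on either strand in 7 of the 9 genes (38.2% of all genes). Among the other actin cytoskeleton genes known as SRF targets, 5 of the 19 with a window held a complete box (Acta1, Actc1, Actg1, Fhl1 and Fhl2). The SP1 matches overlap each other by 1 base in Cav2 and Vcl. Each match is a match of letters and not a measured binding site.

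**Figure D1:**
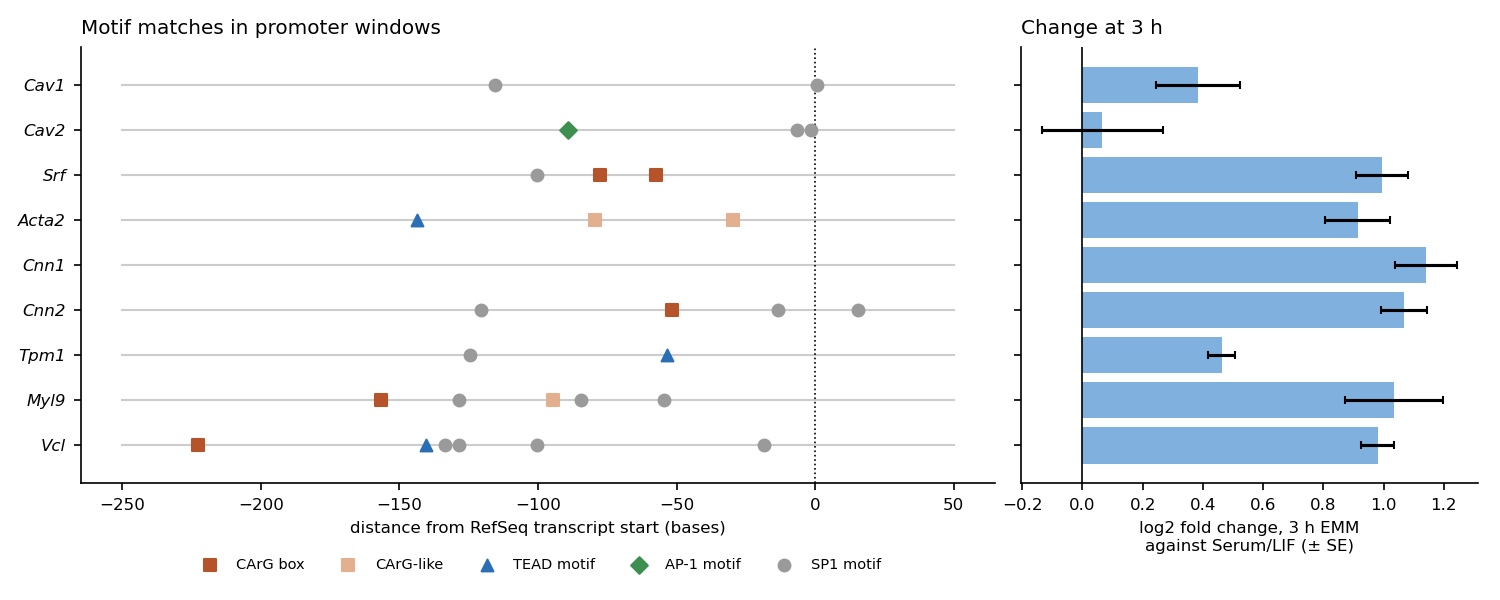
Left, positions of CArG boxes, CArG-like elements and TEAD, AP-1 and SP1 motifs in the promoter windows of the 9 genes, as bases from the RefSeq transcript start (the 2 Cav1 windows are overlaid). Right, log2 fold change of each gene at 3 h in EMM against Serum/LIF with its standard error (n = 3 libraries per group). The 4 genes with a complete box, Srf, Cnn2, Myl9 and Vcl, had log2 fold changes of 0.98 to 1.07, and of the 5 without one, Cav1, Cav2 and Tpm1 had 0.07 to 0.46, Acta2 had 0.91 and Cnn1 had 1.14.

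Total counts ran from 6944904 to 27912928 per library in the passage experiment and from 24074132 to 35301962 in the time course. The ESC genes Pou5f1, Nanog, Sox2, Klf4, Esrrb, Zfp42, Tfcp2l1, Dppa5a and Utf1 had counts in every library. At P10 their sum was 72192 to 78675 normalized counts in Serum/LIF, 93440 to 125281 in EMM and 86687 to 97333 in 2i/LIF. At P20 it was 78469 to 85167, 69207 to 70849 and 90983 to 121144 in that order. EMM was thus above Serum/LIF at P10 and below it at P20, and the part of this difference in the passage results was not tested. Replicate 3 of P20 Serum/LIF stood apart from the other two, with a summed fibroblast marker level of 7262 normalized counts against 3669 and 4048, and several P20 folds are given below with and without it. Fos, an immediate early gene, had 971 to 3703 normalized counts in the P10 libraries and 14.1 to 150.9 in the P20 libraries, in all 3 media, and the part of this difference in the passage results was not tested. Normalized counts here are counts scaled to the mean effective library size of their own experiment, and the values of the 2 experiments are on separate scales.

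The passage experiment asks whether long culture in EMM or 2i/LIF leaves the cells different from those in Serum/LIF. At P10 all 10 genes were lower in 2i/LIF than in Serum/LIF by over 2-fold, and 7 were lower by over 2-fold in EMM. For comparison, 17.7% of all tested genes were lower by over 2-fold in P10 2i/LIF and 14.9% in P10 EMM. As the set was chosen with such results known, nothing is read from those shares. Over the 10 genes the median log2 fold change in EMM was -3.34, and in 2i/LIF it was -5.42 with genes at or under 3 counts set at their bound, while the medians over all tested genes were 0.01 and 0.02. The libraries of the groups compared did not overlap for any of the 10 genes in either contrast.

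Cav1 encodes caveolin-1, the main structural protein of caveolae. In P10 Serum/LIF its 3 libraries had 73.3, 75.4 and 83.3 normalized counts (77.3 ± 5.27, SD, n = 3). In P10 EMM they had 0, 1.56 and 0, and in P10 2i/LIF 0, 0 and 0.815, which is 1 read in all in each of these groups. The level in Serum/LIF was thus 179 times (95% counting interval 31.8 to 7094) that in EMM and 197 times (95% counting interval 34.9 to 7799.5) that in 2i/LIF. EMM and 2i/LIF cannot be ranked at this depth, as both lay under the floor of 3 counts over the group.

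At P20, Cav1 had 106, 122 and 146 normalized counts in Serum/LIF, 9.30, 5.04 and 7.25 in EMM and 0 in all 3 libraries of 2i/LIF. EMM was 18.1-fold lower than Serum/LIF (log2 fold change -4.14, SE 0.32, and -4.01 without the Serum/LIF library that stood apart), and Serum/LIF was at least 116-fold higher than 2i/LIF. In EMM, the P20 level was 15.9 times (95% counting interval 2.63 to 649) the P10 level. The P20 EMM libraries were the only ones outside Serum/LIF in the passage experiment with over 3 Cav1 counts in the group.

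Cav2 encodes caveolin-2, which needs caveolin-1 to reach the membrane, and lies next to Cav1 on chromosome 6. It had 33.8, 35.7 and 28.9 normalized counts in P10 Serum/LIF and 18.9, 24.3 and 26.3 in P20 Serum/LIF. It was at 0 in all 3 libraries of P10 EMM, P10 2i/LIF and P20 2i/LIF, where Serum/LIF was at least 25.5-fold, at least 28.1-fold and at least 21.8-fold higher, in that order. In P20 EMM it had 4.65, 2.24 and 1.45, below Serum/LIF by 8.93-fold. For both caveolins the Serum/LIF libraries overlapped those of neither other medium at either passage. Within Serum/LIF, Cav1 was higher at P20 than at P10 and Cav2 was lower. In P20 2i/LIF against P20 Serum/LIF, the genes of chromosome 6 had a median log2 fold change of 0.33 against -0.02 on the other chromosomes, the opposite direction to that of the caveolins. Other chromosomes were shifted in this contrast too. Chromosome 8 had 0.45 against -0.02, and chromosome 14, which carries Vcl, had -0.18 against 0. The part of these shifts in the P20 2i/LIF folds was not tested.

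**Figure D2:**
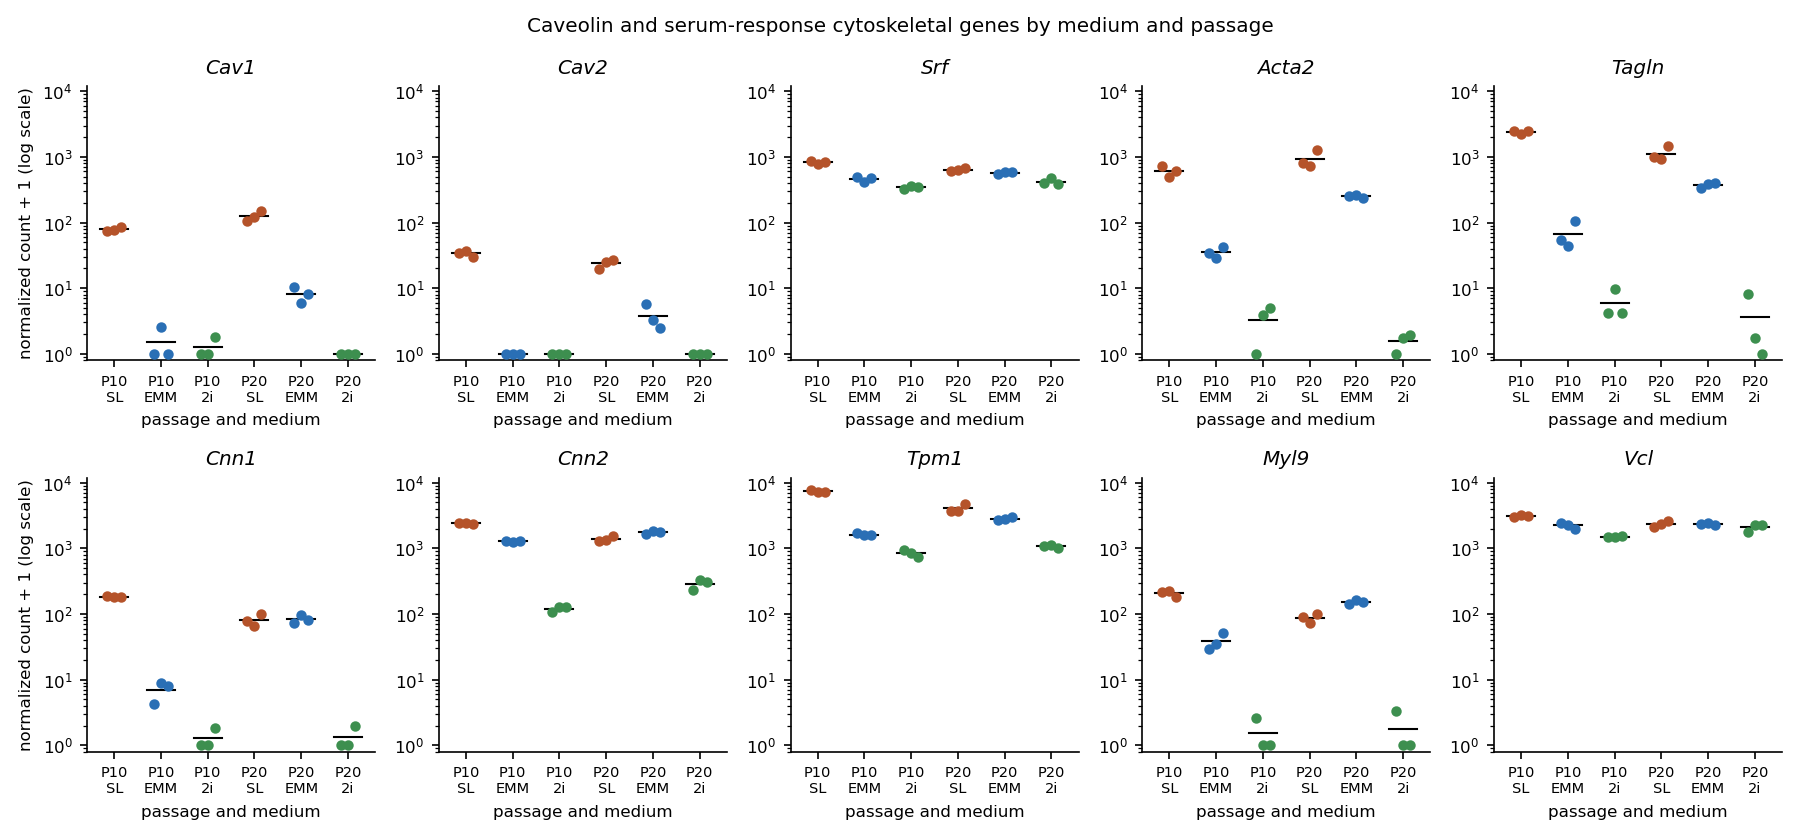
Normalized count plus 1 (log scale) of each of the 10 genes in the 18 libraries of the passage experiment, by passage and medium, with the points as libraries and the bars as group means (n = 3). The caveolins sit at or near 0 in 2i/LIF at both passages and in EMM at P10, and Cnn1, Cnn2 and Myl9 in P20 EMM are level with or above P20 Serum/LIF.

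Srf, the gene of the factor itself, was lower in both other media at both passages. It had 863, 776 and 827 normalized counts in P10 Serum/LIF, 489, 419 and 467 in EMM and 326, 359 and 350.2 in 2i/LIF. The log2 fold changes against Serum/LIF were -0.84 (SE 0.092) in EMM and -1.25 (SE 0.093) in 2i/LIF. At P20 the values were 610.3, 624 and 674 in Serum/LIF, 538, 592 and 581 in EMM and 392, 471 and 383 in 2i/LIF, and the difference between EMM and Serum/LIF was -0.16 (SE 0.089) on the log2 scale. The 3 media stood in the same order at both passages, with none overlapping.

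Acta2 and Tagln encode smooth muscle actin and transgelin, an actin-binding protein, and are the classical contractile targets of SRF. Acta2 had 719, 501 and 598 normalized counts in P10 Serum/LIF, 33.8, 28.1 and 41.2 in EMM and 0, 2.90 and 4.07 in 2i/LIF. EMM was lower than Serum/LIF by 18.1-fold and 2i/LIF by 222-fold. At P20 Acta2 had 793, 730.0 and 1271 in Serum/LIF, 254, 260.2 and 238 in EMM and 0, 0.739 and 0.958 in 2i/LIF, so that EMM lay 3.53-fold below Serum/LIF. Without the P20 Serum/LIF library that stood apart, the log2 fold change of P20 EMM against Serum/LIF went from -1.89 to -1.60, and that of P20 against P10 Serum/LIF from 0.61 to 0.33.

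Tagln had the highest level per exon length of the set in P10 Serum/LIF. Its libraries had 2462, 2201 and 2446 normalized counts in P10 Serum/LIF, 52.2, 43.6 and 103 in P10 EMM and 3.14, 8.71 and 3.26 in P10 2i/LIF, so EMM was 39.8-fold and 2i/LIF 504-fold lower. At P20 it had 983, 924 and 1454 in Serum/LIF, 339.6, 386 and 397 in EMM and 7.05, 0.739 and 0 in 2i/LIF. At P20 it was 2.20-fold lower than at P10 in Serum/LIF and 6.35-fold higher in EMM, with no overlap of libraries in either medium. Without the P20 Serum/LIF library that stood apart, the log2 fold change of P20 EMM against Serum/LIF went from -1.58 to -1.35, and that of P20 against P10 Serum/LIF from -1.08 to -1.31.

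Cnn1 and Cnn2 encode calponins, which bind actin filaments. Cnn1, the smooth muscle form, had 184, 181 and 179 normalized counts in P10 Serum/LIF, 3.21, 7.79 and 6.87 in EMM and 0, 0 and 0.815 in 2i/LIF. At P20 its level in EMM, 72.6, 95.7 and 79.8, overlapped that in Serum/LIF, 77.7, 65.0 and 98.9, while 2i/LIF had 1 read in 3 libraries. Cnn2, the form found in many cell types, had 2427, 2434 and 2324 in P10 Serum/LIF, 1286, 1238 and 1294 in EMM and 107, 128 and 126 in 2i/LIF. At P20 it had 1644, 1852 and 1786 in EMM and 1299, 1330.0 and 1554 in Serum/LIF, so EMM was now above Serum/LIF, with a log2 fold change of 0.34 (SE 0.094), and 2i/LIF had 230.3, 324 and 309. Without the P20 Serum/LIF library that stood apart, the log2 fold change of P20 EMM against Serum/LIF was 0.42 for Cnn2, and for Cnn1 it went from 0.06 to 0.22.

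Myl9, which encodes a regulatory light chain of myosin, was below Serum/LIF in P10 EMM and above it in P20 EMM. It had 214, 219 and 180.5 normalized counts in P10 Serum/LIF and 28.1, 34.3 and 50.4 in P10 EMM, 6.05-fold lower. At P20 it had 139, 161 and 152 in EMM and 90.3, 72.1 and 98.9 in Serum/LIF, 1.80-fold higher, and the libraries did not overlap. Without the P20 Serum/LIF library that stood apart, the log2 fold change at P20 went from 0.80 to 0.90. In 2i/LIF it had 1 read in all at each passage. The difference of the EMM effect between passages was not tested, because the passage values of the set are a description.

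Tpm1 and Vcl encode tropomyosin 1, which lies along actin filaments, and vinculin, which links actin to adhesions. Tpm1 had 7795, 7136 and 7248 normalized counts in P10 Serum/LIF, 1693, 1569.5 and 1608 in EMM and 951, 851 and 745 in 2i/LIF, and at P20 it had 3686, 3644 and 4818 in Serum/LIF, 2668, 2787 and 3054 in EMM and 1102, 1105 and 1028 in 2i/LIF. Its log2 fold change in EMM was -2.19 (SE 0.10) at P10 and -0.51 (SE 0.099) at P20, where it was -0.37 without the Serum/LIF library that stood apart. Vcl had the smallest fold of the set at P10 in both other media. It had 2972, 3274 and 3098 in P10 Serum/LIF, 2438, 2262 and 1998 in EMM and 1499, 1484 and 1519.9 in 2i/LIF, and at P20 2081, 2341 and 2585 in Serum/LIF, 2318, 2394 and 2289 in EMM and 1750.4, 2244 and 2265 in 2i/LIF. The P20 Serum/LIF libraries overlapped those of both other media.

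At P20 the median log2 fold change of the set against Serum/LIF was -0.33 in EMM (-0.24 without the Serum/LIF library that stood apart) and -5.32 in 2i/LIF. Of the 10 genes, 4 were lower by over 2-fold in P20 EMM (Cav1, Cav2, Acta2 and Tagln), where 9.97% of all tested genes were, and 8 in P20 2i/LIF, where 19.3% were. The exceptions in 2i/LIF were Srf and Vcl. EMM was over 2-fold above 2i/LIF for 5 genes at P10 (15.1% of all tested genes) and for 8 at P20 (19.2%). From P10 to P20, 6 genes were higher by over 2-fold in EMM (10.7% of all tested genes), namely Cav1, Cav2, Acta2, Tagln, Cnn1 and Myl9. Over the same passages 3 were lower by over 2-fold in Serum/LIF (2.57%), namely Tagln, Cnn1 and Myl9, and Tpm1 joined them when replicate 3 of P20 Serum/LIF was left out. In 2i/LIF, where most members were near 0, 1 was higher by over 2-fold (7.26%), Cnn2, and 3 were lower in the fit (11%), all of them with few reads or none at both passages.

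Levels can be compared between genes only per exon length, here as CPM per kb. This is the count scaled to the effective library size and divided by the exon length in kilobases. In P10 Serum/LIF the order was Tagln (76.4), Tpm1 (73.1), Cnn2 (62.4), Vcl (24.4), Srf (18.2), Acta2 (17.7), Myl9 (11.3), Cnn1 (4.25), Cav1 (1.44) and Cav2 (0.630 CPM per kb). The libraries of Tagln and Tpm1 overlapped in this order, as did those of Srf and Acta2, and no other neighbours in the order did. In the Serum/LIF libraries of the time course Tagln was ninth of the 10, at 0.557 CPM per kb, and Cnn2 (38.1) and Tpm1 (34.9) led and overlapped. The 2 experiments were counted and processed separately, so this difference in Tagln level between Serum/LIF cultures cannot be told apart from a difference in processing.

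Between media, the fibroblast, trophoblast and smooth muscle marker sums were highest in Serum/LIF, as most of these genes were. The endoderm and mesoderm sums followed this only in part. The summed level of 8 fibroblast markers (Col1a1, Col1a2, Col3a1, Thy1, Dcn, Lum, Postn and Pdgfrb) was 2299 to 2725 normalized counts in P10 Serum/LIF and 3669 to 7262 in P20 Serum/LIF, against 328 to 386 in P10 EMM, 192.6 to 230.0 in P20 EMM and 87.1 to 124 in 2i/LIF. Most of it was collagen, with Col1a1 at a mean of 1895 in P10 Serum/LIF, while the defining markers Dcn, Lum and Postn had means of 3.33, 0.964 and 14.6 there. The sum of 5 trophoblast markers was 3093 to 3596 in P10 Serum/LIF and 1640 to 2589 in P20 Serum/LIF, against 109 to 183 in P10 EMM, 257 to 274 in P20 EMM, 286 to 350.2 in P10 2i/LIF and 120.4 to 146 in P20 2i/LIF, most of it Krt18 in Serum/LIF, with Elf5 at a mean of 2.31 in P10 Serum/LIF. The sum of 7 smooth muscle markers outside the set was 979 to 1114 in P10 Serum/LIF, 628 to 689 in EMM and 426 to 524 in 2i/LIF, and at P20 837 to 906, 744 to 785 and 502 to 597 in the same order. Most of it was Smtn in P10 Serum/LIF, with Myh11, Actg2 and Myocd at means of 17.8, 2.92 and 4.98 there. From P10 to P20 the trophoblast and smooth muscle sums were higher in EMM and lower in Serum/LIF, as were Tagln, Cnn1 and Myl9, while the fibroblast sum was lower in EMM and higher in Serum/LIF, where Cav1 and Acta2 were also higher. In bulk RNA fewer cells that express a gene and less RNA per cell cannot be told apart, and the part of these markers in the result was not tested. At P10 the sum of 5 endothelial markers was 431 to 519 in Serum/LIF, 262 to 308 in EMM and 163 to 320.1 in 2i/LIF. The sum of 7 mesoderm markers was 467 to 1069.6, 259 to 355 and 734 to 1029.7 in that order, and that of 7 primitive and parietal endoderm markers 3804 to 4253, 4213 to 4909 and 2276 to 3384. At P20, in the same order of media, the endothelial sum was 273 to 375, 232 to 281 and 117 to 290.2, the mesoderm sum 554 to 705, 189.7 to 207 and 268 to 404, and the endoderm sum 3246 to 4541, 1991 to 2346 and 5536 to 6351, so that the endoderm sum was lowest in EMM at P20 and lowest in 2i/LIF at P10.

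**Figure D3:**
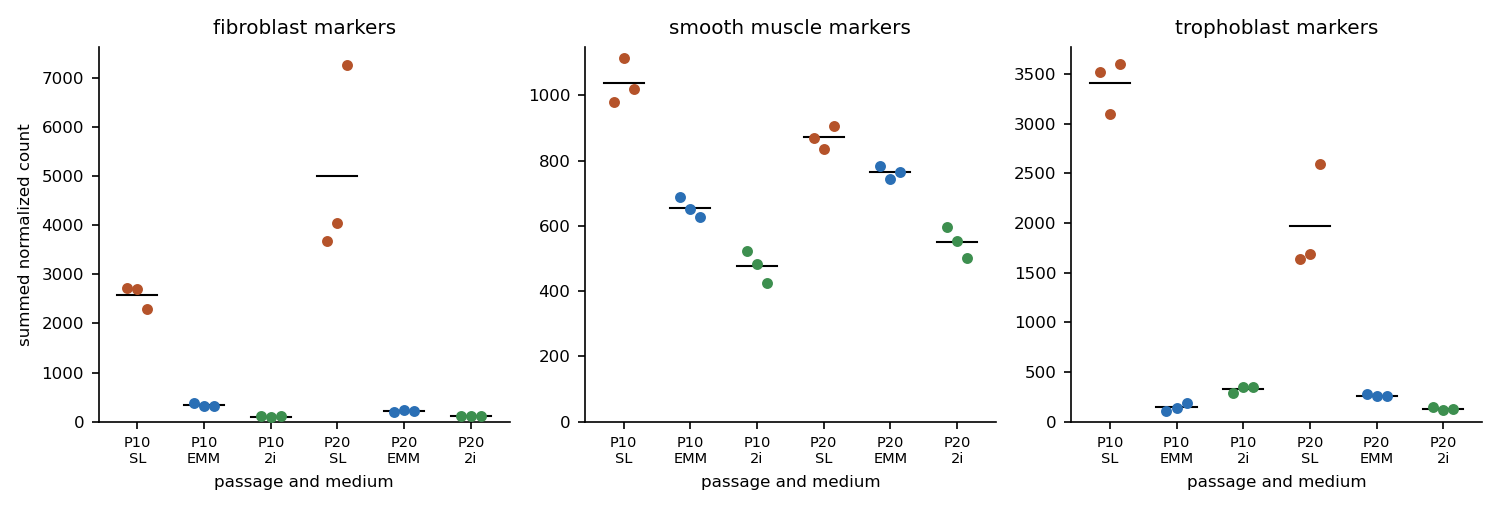
Summed normalized count of 8 fibroblast, 7 smooth muscle and 5 trophoblast markers in each library of the passage experiment, by passage and medium, with points as libraries and bars as group means (n = 3). All 3 sums are highest in Serum/LIF, and replicate 3 of P20 Serum/LIF is the highest library for the fibroblast sum, at 7262.

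The time course asks what the first 24 h in EMM do to cells from Serum/LIF, and here each gene's adjusted p is given, from edgeR's quasi-likelihood fit over all tested genes. Since the time course may have entered the choice of the genes, these p-values set each difference against the spread between libraries and are no independent evidence about the set. Within 3 h, 8 of the 10 genes rose at an adjusted p under 0.01 and none fell, against 16.3% of all 16049 tested genes higher and 18.2% lower. The median log2 fold change of the set at 3 h was 0.99, against -0.01 over all tested genes. Summed markers of some other cell types were also higher at 3 h. They had 2986 to 3658 normalized counts against 2024 to 2291 for trophoblast, 7252 to 7861 against 5361 to 6118 for endoderm and 652 to 682 against 435 to 514 for endothelium. Other sums overlapped Serum/LIF, at 1818 to 2120 against 1924 to 2022 for fibroblast, 1512 to 1566 against 1485 to 1652 for smooth muscle and 864 to 878 against 863 to 899 for mesoderm. The part of any of these markers in the result was not tested. At 9 h 6 were higher and 1 lower (18.5% and 19.7% of all tested genes), and at 24 h again 6 higher and 1 lower (21.8% and 22.2%). From 3 h to 24 h, 2 rose and 6 fell (20.8% and 19.2%). The comparisons with Serum/LIF share the same 3 control libraries. Differences are given below as log2 fold changes with their SE.

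Srf was highest at 3 h. Its libraries had 2394, 2404 and 2057 normalized counts in Serum/LIF, 4496, 4687 and 4479.9 at 3 h, 1766, 1891 and 1501 at 9 h and 2117, 1759 and 1725 at 24 h. The rise at 3 h was 0.99 (SE 0.085, adjusted p = 2.43e-07), and by 9 h Srf was below Serum/LIF, at -0.41 (SE 0.087, adjusted p = 0.00111). At 24 h it did not pass the threshold against Serum/LIF (log2 fold change -0.29, SE 0.087, adjusted p = 0.0102), and the fall from 3 h to 24 h was -1.29 (SE 0.086, adjusted p = 2.28e-08).

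Vcl was also highest at 3 h. It had 2320.2, 2406 and 2779.7 normalized counts in Serum/LIF, 4925, 4856 and 5024 at 3 h, 2753, 2918 and 2755 at 9 h and 2824, 2822 and 2957 at 24 h. The 3 h libraries stood clear of all others, at 0.98 (SE 0.055, adjusted p = 3.25e-09). The difference at 9 h was 0.17 (SE 0.055, adjusted p = 0.0202), which did not pass, and that at 24 h was 0.20 (SE 0.055, adjusted p = 0.00697). The fall from 3 h to 24 h was -0.78 (SE 0.054, adjusted p = 3.23e-08). The call at 24 h was lost without any of 4 single libraries (replicates 1 and 2 of Serum/LIF and 2 and 3 of 24 h), with scaling by library totals (adjusted p = 0.0120), with only the groups compared in the fit (0.0223) and with a block by the number in the description label (0.046).

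Myl9 rose and then fell below its start. It had 133, 94.8 and 109 normalized counts in Serum/LIF, 232, 251 and 203 at 3 h, 133, 158 and 206 at 9 h and 58.0, 80.6 and 71.9 at 24 h. At 3 h the difference was 1.03 (SE 0.16, adjusted p = 9.74e-05), at 9 h 0.57 (SE 0.17, adjusted p = 0.0113), and at 24 h -0.67 (SE 0.19, adjusted p = 0.00798). From 3 h to 24 h it fell by more than any other of the 10 genes, -1.70 (SE 0.17, adjusted p = 1.18e-06). The 24 h level below Serum/LIF was not past the threshold when replicate 1 or 3 of either group was left out, with adjusted p-values of 0.0178 to 0.049, or with a replicate block by title number (0.0109) or description number (0.0291).

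**Figure D4:**
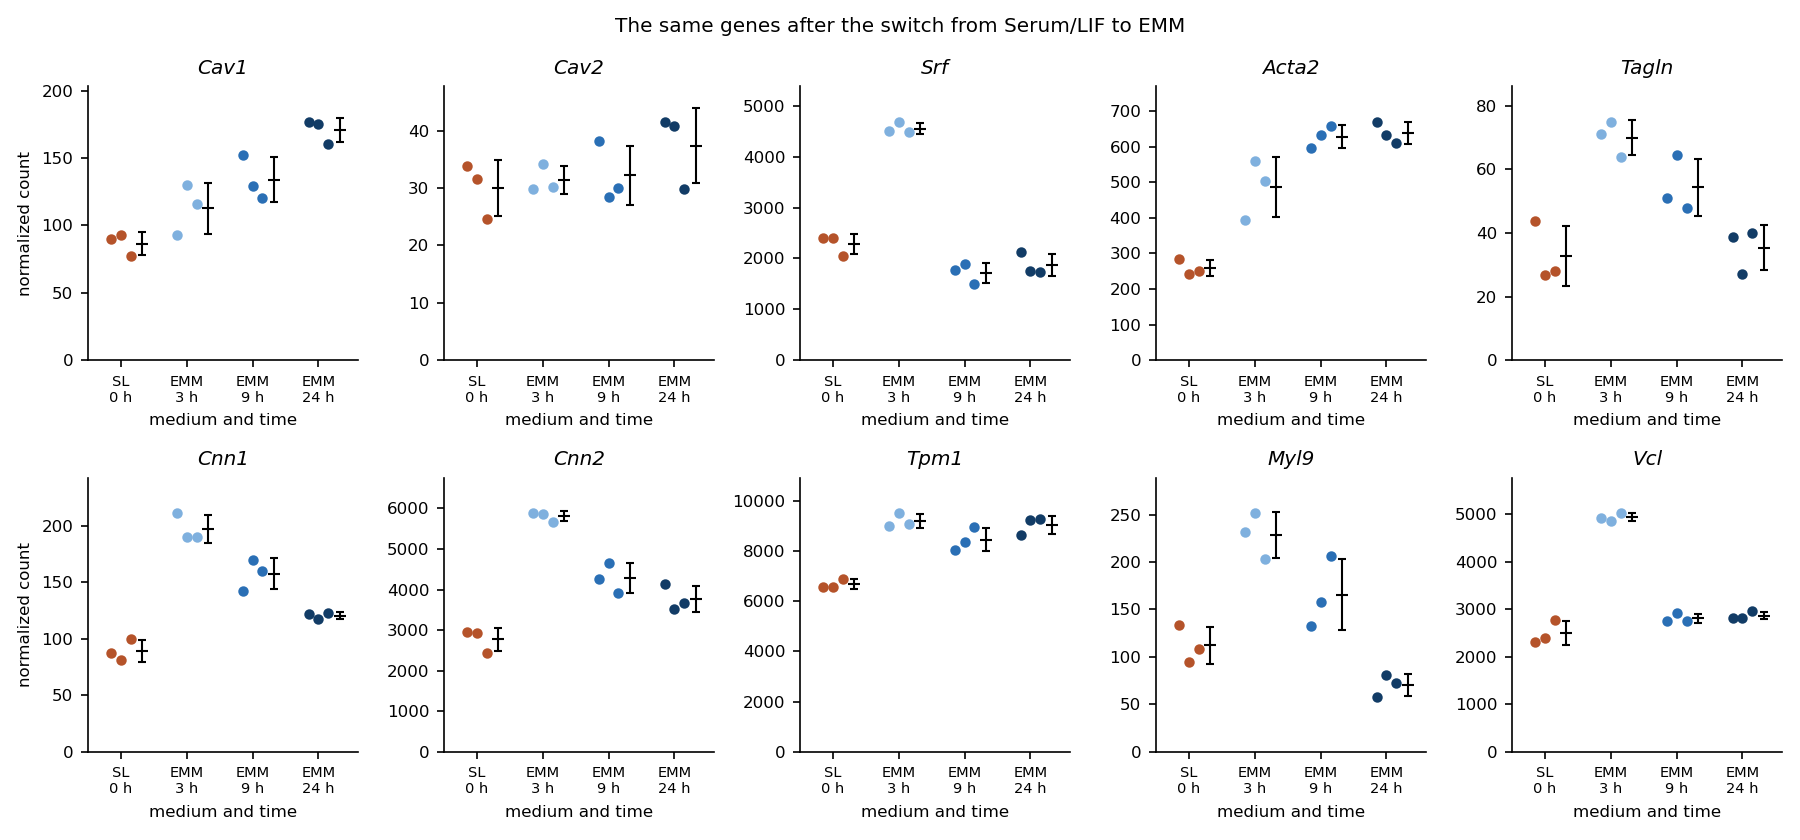
Normalized count of each of the 10 genes in the 12 libraries of the time course, with points as libraries and bars as mean and SD (n = 3 per group), on axes that start at 0. Srf, Vcl, Cnn1, Cnn2, Tagln and Myl9 are highest at 3 h, and Cav1 is highest at 24 h.

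The calponins and Tagln were highest at 3 h too. Cnn1 had 87.2, 80.9 and 99.6 normalized counts in Serum/LIF, 211, 189.7 and 189.9 at 3 h, 143, 169.6 and 159.6 at 9 h and 122, 117 and 122 at 24 h. Its log2 fold change went from 1.14 (SE 0.10, adjusted p = 4.23e-07) at 3 h to 0.44 (SE 0.11, adjusted p = 0.00353) at 24 h, and the latter call was lost without replicate 1 or 2 of Serum/LIF or replicate 3 of 24 h, with the DESeq2 Wald test (adjusted p = 0.0117) and with a block by the number in the description label (0.0217). Cnn2 had 2954, 2917 and 2441, 5881, 5869 and 5669, 4270.3, 4655 and 3912 and 4128, 3515 and 3661 in the same order of times. It was higher at all 3 times, from 1.07 (SE 0.077, adjusted p = 4e-08) at 3 h to 0.44 (SE 0.077, adjusted p = 0.000162) at 24 h.

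Tagln was low in this experiment, with 43.6, 26.7 and 28.0 normalized counts in Serum/LIF, 71.0, 74.9 and 63.9 at 3 h, 50.9, 64.4 and 47.7 at 9 h and 38.7, 27.2 and 40.1 at 24 h. It rose at 3 h by 1.11 (SE 0.20, adjusted p = 0.000325) and at 9 h by 0.75 (SE 0.21, adjusted p = 0.00728), where the call was lost without replicate 2 or 3 of Serum/LIF or replicate 1 or 2 of 9 h, with the DESeq2 Wald test (adjusted p = 0.0108) and with only the groups compared in the fit (0.0147). At 24 h the libraries overlapped those of Serum/LIF (log2 fold change 0.13, SE 0.23, adjusted p = 0.651), and Tagln was below its 3 h level, -0.98 (SE 0.19, adjusted p = 0.000596).

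Acta2 and Cav1 were higher at 24 h than at 3 h. Acta2 had 285, 243 and 249.6 normalized counts in Serum/LIF, 395, 561 and 502 at 3 h, 595, 633 and 657 at 9 h and 669.9, 634 and 609 at 24 h. It rose by 0.91 (SE 0.11, adjusted p = 6.58e-06) at 3 h and stood at 1.30 (SE 0.11, adjusted p = 9.1e-08) at 24 h. The difference between 24 h and 3 h was 0.39 (SE 0.098, adjusted p = 0.00386). It missed the threshold without replicate 1 or 3 of 3 h or replicate 1 or 2 of 24 h.

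Cav1 had 89.6, 92.8 and 77.2 normalized counts in Serum/LIF, 92.6, 129.9 and 116 at 3 h, 153, 129 and 120.2 at 9 h and 177, 175 and 160.3 at 24 h. At 3 h the groups overlapped by the lowest library (log2 fold change 0.38, SE 0.14, adjusted p = 0.0333), and Cav1 was then higher at 9 h (log2 fold change 0.63, SE 0.14, adjusted p = 0.00122) and at 24 h (log2 fold change 0.98, SE 0.13, adjusted p = 1.64e-05). The difference between 24 h and 3 h was 0.59 (SE 0.12, adjusted p = 0.000951). Cav2 had 33.9, 31.6 and 24.6 in Serum/LIF and 41.6, 40.8 and 29.8 at 24 h, overlapping at each time, with a difference at 24 h of 0.32 (SE 0.20, adjusted p = 0.188). Cav2 passed the threshold at no time, at total counts of 82 to 111 per group.

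Tpm1 was higher at all 3 times. It had 6559.8, 6582 and 6901 normalized counts in Serum/LIF, 9019.8, 9513 and 9092 at 3 h, 8052, 8357 and 8979 at 9 h and 8648, 9261 and 9275 at 24 h. The difference was 0.46 (SE 0.045, adjusted p = 9.29e-07) at 3 h and 0.44 (SE 0.045, adjusted p = 9.72e-07) at 24 h, and that between 24 h and 3 h was -0.02 (SE 0.045, adjusted p = 0.689).

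**Figure D5:**
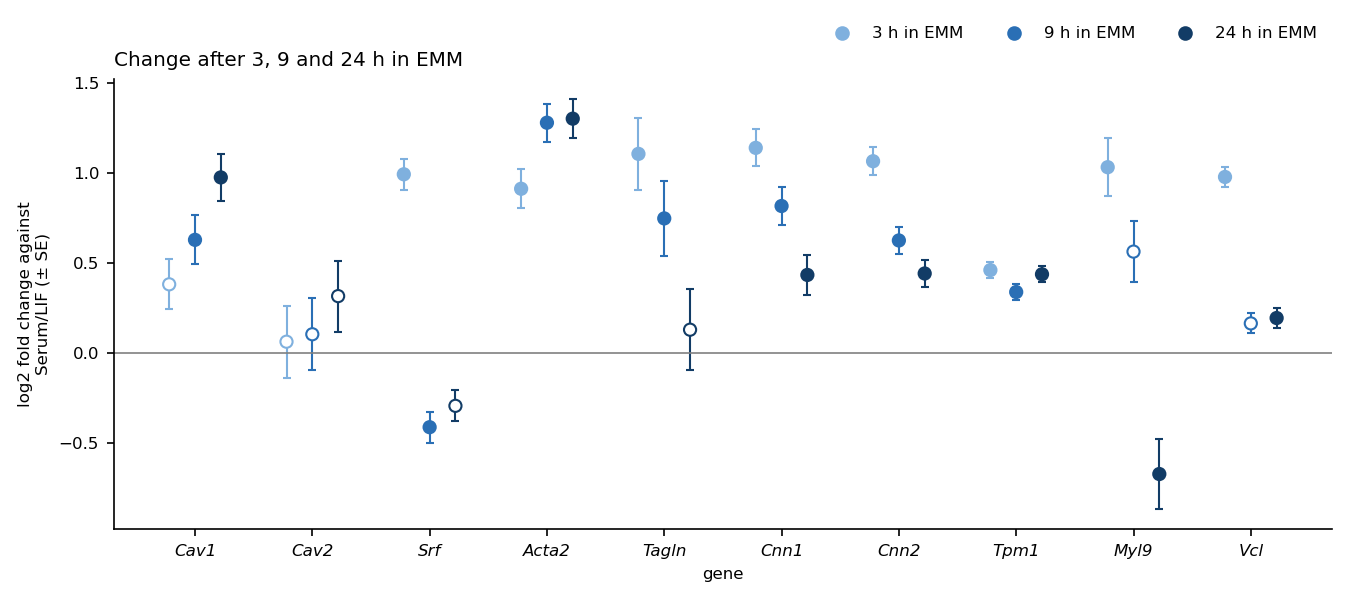
Log2 fold change of each gene at 3, 9 and 24 h in EMM against Serum/LIF, with its standard error (n = 3 libraries per group). Filled points have an adjusted p under 0.01 and open points do not. Srf and Myl9 lie above 0 at 3 h and below 0 at 24 h, while Cav1 and Acta2 are higher at 24 h than at 3 h.

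Cav1, Acta2 and Tpm1 were above Serum/LIF after 24 h in EMM and below it in P10 and P20 EMM. For Cav1 the log2 fold change against the Serum/LIF of its own experiment was 0.98 at 24 h and -4.14 at P20, and for Acta2 1.30 at 24 h, -4.16 at P10 and -1.89 at P20. For Tpm1 it was 0.44, -2.19 and -0.51 in that order. The summed fibroblast markers were 1924 to 2022 normalized counts in Serum/LIF of the time course and 1359 to 1588 at 24 h, in the opposite direction to these 3 genes, and the trophoblast sum was 2024 to 2291 and 3933 to 4257. The smooth muscle sum was 1485 to 1652 and 1274 to 1329, the endothelial sum 435 to 514 and 529 to 617, the mesoderm sum 863 to 899 and 756 to 833, and the endoderm sum 5361 to 6118 and 7448 to 8147. The trophoblast sum, here and at 3 h, joins Cdx2, Elf5, Gata3, Krt7 and Krt18, and its rise does not hold for each of them. The paper reports lower Cdx2 and Elf5 in EMM. Each 24 h library had 1 of the 5 without counts, as had replicate 2 of Serum/LIF. The part of these markers in the result was not tested.

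The pathway lists, here and below, were also chosen with earlier results of these data known. Their counts and p-values describe these data and are no independent evidence about the set. The other actin cytoskeleton genes known as SRF targets, a list of 22 with 21 tested, were counted in the same fit. At 3 h in EMM 14 rose and 1 fell at an adjusted p under 0.01, against 16.3% and 18.2% of all tested genes, with a median log2 fold change of 0.47. The fall was that of Des, which encodes desmin, an intermediate filament protein. At 24 h 10 rose and 1 fell (21.8% and 22.2% of all tested genes), the largest rise being that of Acta1, skeletal muscle actin, from a mean of 124 to 552 normalized counts (log2 fold change 2.16, SE 0.11, adjusted p = 4.49e-10), and the fall again that of Des, from 249 to 118 (log2 fold change -1.08, SE 0.11, adjusted p = 6.75e-07). Smtn, Tpm2 and Tpm3 did not pass the threshold at any of the 3 times.

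In the passage experiment 12 of the 21 fell and none rose in P10 EMM against Serum/LIF, where 18.7% of all tested genes were higher and 18.7% lower at that threshold. In P10 2i/LIF 14 fell and 1 rose (Fhl1), against 26.4% of all tested genes higher and 25.6% lower. In P20 2i/LIF 11 fell and 4 rose, against 21% higher and 23.2% lower, and the list's median log2 fold change was -0.27, against -0.98 at P10. The largest fall in P10 2i/LIF was that of Actc1, cardiac actin, from a mean of 70.5 normalized counts to 1 read in the group, a ratio of 186 (95% counting interval 33.0 to 7384). In P20 EMM 7 fell and 2 rose (Myh9 and Flna), against 13.6% of all tested genes higher and 12.5% lower.

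Immediate early genes form the other arm of SRF regulation. Of 9 genes, 4 rose at 3 h (Fos, Junb, Egr3 and Nr4a1), 3 were higher at 9 h, and at 24 h 1 was higher (Nr4a1) and 1 lower (Egr1). Of all tested genes 16.3% were higher at 3 h, 18.5% at 9 h and 21.8% at 24 h, with 22.2% lower at 24 h, so the 24 h counts lie below the background. In P10 2i/LIF, where 26.4% of all tested genes were higher and 25.6% lower, 1 of 8 tested rose, Egr1, which encodes a zinc finger transcription factor, from a mean of 1514 to 3691 normalized counts (log2 fold change 1.28, SE 0.12, adjusted p = 3.38e-08). There 3 fell, the largest fall being that of Junb, an AP-1 subunit, from 1113 to 152 (log2 fold change -2.91, SE 0.20, adjusted p = 5.76e-10). In P20 2i/LIF, where 21% of all tested genes were higher and 23.2% lower, none rose and 6 fell, Egr1 among them, with 2.35, 8.87 and 12.5 normalized counts against 359, 393 and 427 in P20 Serum/LIF (log2 fold change -5.40, SE 0.22, adjusted p = 1.12e-12), the opposite direction to P10. In P10 EMM 2 rose and 3 fell, against 18.7% of all tested genes in each direction.

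Among the genes of the SRF cofactors, with 5 of 6 tested, 1 rose and 1 fell at 3 h, 3 rose at 9 h, and 4 rose at 24 h (Mrtfb, Elk1, Elk3 and Elk4), while Mrtfa, which encodes an actin-sensing partner of SRF, passed at none of these times. Of all tested genes 18.2% were lower at 3 h, and the shares that were higher at the 3 times were 16.3%, 18.5% and 21.8%. In P10 2i/LIF 3 rose and none fell (26.4% and 25.6% of all tested genes), the largest rise being that of Elk3, a ternary complex factor, from a mean of 188 to 400.1 normalized counts (log2 fold change 1.09, SE 0.13, adjusted p = 6.76e-07). The MRTF proteins are regulated by their place in the cell, which RNA does not measure.

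Among the caveola coat and partner genes, with 6 of 8 tested, 1 rose and 2 fell at 3 h, and 1 rose and 1 fell at 24 h. With 16.3% and 18.2% of all tested genes called at 3 h and 21.8% and 22.2% at 24 h, a count of 1 in 6 is near or below the background. The gene that rose at both times was Cavin1, the main caveola coat protein. In P10 EMM Cavin1 was above Serum/LIF, with 3063, 3630.0 and 3826 normalized counts against 1527, 1434 and 1291 (log2 fold change 1.30, SE 0.17, adjusted p = 3.96e-06), where Cav1 had 1 read in all. In P20 EMM it had 985, 1085 and 1039 against 1023, 1106 and 1200.1 in P20 Serum/LIF, and the libraries overlapped (log2 fold change -0.10, SE 0.17, adjusted p = 0.684). In P10 2i/LIF none rose and 3 fell (26.4% and 25.6% of all tested genes), the largest fall being that of Ehd2, an ATPase of the caveolar neck, from a mean of 89.0 to 28.6 (log2 fold change -1.65, SE 0.21, adjusted p = 2.26e-06). Cavin1 was chosen here after its values were seen, as it falls outside the rule for naming genes.

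Focal adhesion partners of vinculin, 11 genes all tested, rose in 4 cases and fell in 1 at 3 h, and rose in 4 with none falling at 24 h. The shares of all tested genes were 16.3% higher and 18.2% lower at 3 h, 21.8% and 22.2% at 24 h, and 26.4% and 25.6% in P10 2i/LIF, for this list and the next. In P10 2i/LIF 1 rose and 5 fell, the extremes being Itgav, an integrin subunit, from a mean of 726 to 1547 normalized counts (log2 fold change 1.10, SE 0.12, adjusted p = 4.2e-07), and Parva, an actin-binding partner of ILK, from 481 to 98.8 (log2 fold change -2.29, SE 0.22, adjusted p = 6.24e-08). Genes of the YAP and TEAD pathway, which also responds to actin tension, rose in 5 of 8 cases and fell in 1 at 3 h, and rose in 6 and fell in 1 at 24 h. The largest rise at 24 h was that of Lats2, a kinase that restrains YAP, from a mean of 68.6 to 140 (log2 fold change 1.03, SE 0.16, adjusted p = 6.69e-05). In P10 2i/LIF 1 rose and 6 fell, with the largest fall in Ccn1, a secreted matrix protein, from 1414 to 216 (log2 fold change -2.72, SE 0.21, adjusted p = 2.4e-09).

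Genes with the most similar profiles were found by Pearson's r of log2 CPM over all libraries of an experiment, which share their scaling and group structure, so r is a description. Over the 18 passage libraries Cav1 was most like Mfap2 (r = 0.989), Col3a1 (0.987), Cav2 (0.980), Tnc (0.980) and Bgn (0.977), of which all but Cav2 encode proteins of the extracellular matrix. Tagln was most like Thbs1 (0.995), 4933412E12Rik (0.986), Adamts1 (0.985) and Cgn (0.979), with Acta2 at rank 14. Srf was most like Pard6b (0.979), Tpm1 (0.979), Traf4 (0.971), Nell2 (0.962) and Krt19 (0.961).

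Over the 12 time-course libraries other genes led. Cav1 was most like Nkain4 (r = 0.969), Ahcyl2 (0.964), 4933402E13Rik (0.958), Zbtb43 (0.954) and Gprc5a (0.954), with Cav2 at r = 0.697. Tagln was most like Map1s (0.964), Thrap3 (0.9496), Pax5 (0.931), Gm30934 (0.930) and Vgf (0.929). Srf was most like Ppp1r10 (0.987), Srsf3 (0.983), Fblim1 (0.982), Gse1 (0.981) and Dnmt3l (0.980), and its r with Vcl was 0.852.

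The places of the genes bear on how reads were assigned. On GRCm38 (GENCODE M21) Cav2 (ENSMUSG00000000058) lies at chr6:17281185-17289115 and Cav1 (ENSMUSG00000007655) at chr6:17306335-17341452, both on the plus strand inside the antisense gene Gm15581. Srf (ENSMUSG00000015605) lies at chr17:46548329-46556175 on the minus strand, opposite the long non-coding gene Gm26904. It also overlaps the microRNA gene Mir6976 on its own strand. Tagln (ENSMUSG00000032085) at chr9:45929619-45936058 overlaps Pcsk7 and Gm48529 on the other strand, and Vcl (ENSMUSG00000021823) at chr14:20929398-21033676 overlaps Ap3m1. Acta2 (ENSMUSG00000035783), Cnn1 (ENSMUSG00000001349), Cnn2 (ENSMUSG00000004665), Tpm1 (ENSMUSG00000032366) and Myl9 (ENSMUSG00000067818) overlap no other annotated gene. Whether strand was used in counting is not given in the sources used here, so reads of Cav1, Cav2, Srf, Tagln and Vcl cannot be told apart from those of their partners on the other strand where the exons overlap. For Srf and Mir6976, strand could not separate the reads where their exons overlap.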

How the data were processed

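RNA-seq was analysed from 30 libraries of E14tg2a cells, 12 in the time course and 18 in the passage experiment, grouped by the submitters' labels. The time-course table that the authors deposited holds raw counts per gene, all whole, and the submitters' processing notes name STAR and featureCounts with mm10. The study's methods also describe HTSeq and reads in introns and exons, without saying which class the table holds. For the passages the authors deposited estimated counts per gene made with STAR and Salmon on mm10, and these were rounded to whole numbers. Annotation and strand setting are not given in the sources used here. The directional library kit was used for the passages. Total counts ran from 24074132 to 35301962 in the time course and from 6944904 to 27912928 in the passages.

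From these, each experiment was fitted once with edgeR 4.0.16 in R 4.3.3 (TMM scaling, filterByExpr, quasi-likelihood F test, all groups in the fit, no covariates), leaving 16049 and 16054 tested genes, with Benjamini-Hochberg adjustment over all of them and a threshold of 0.01. The test was checked on simulated counts. The members and lists were chosen with earlier results of these data known, so the passage contrasts of the members carry no test. Folds against a group with no counts use a floor of 3 counts over the group and are lower bounds, and ratios against 1 to 3 counts carry an exact 95% Poisson interval. Both cover counting error only. List genes were named where they had the largest rise or fall at 24 h or in P10 2i/LIF among genes with an adjusted p under 0.01, over 2-fold, groups that did not overlap and a mean of at least 50 normalized counts. Profiles were compared for Cav1, Tagln and Srf, giving the 5 genes with the highest r (prior count 2), of which 1 is not reported here. Alternatives were other scalings (DESeq2 1.42.0 size factors, library totals), other filters, the DESeq2 Wald test, only the groups compared, a replicate block, other thresholds and each library left out. For contrasts with P20 2i/LIF, a scaling that left out the genes of chromosomes 6 and 8 was also run. Promoter windows are from RefSeq (GRCm38.p6) and coordinates from GENCODE M21. The study states independent experiments for its replicates. The same replicate numbers did not pair the groups by the check on deviations (correlations of -0.13 to 0.21 in the time course and -0.21 to 0.30 in the passages), apart from P10 and P20 2i/LIF, where all 3 were above 0.1.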

Additional observations from a re-analysis of the deposited data

Results flagged for a closer look

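Myl9 and Cnn2 had opposite signs in EMM at the 2 passages. For Myl9 the log2 fold change of EMM against Serum/LIF was -2.52 at P10 and 0.80 at P20, a difference of 3.32. For Cnn2 it was -0.91 at P10 and 0.34 at P20, a difference of 1.25. These differences were not tested, because the passage values of the set are a description.

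Srf and Myl9 had opposite signs within the time course. For Srf the log2 fold change against Serum/LIF was 0.99 at 3 h and -0.41 at 9 h, a difference of -1.40 that was not tested. For Myl9 it was 1.03 at 3 h and -0.67 at 24 h, a difference of -1.70, which the direct comparison of 24 h with 3 h tested (edgeR, adjusted p = 1.18e-06), with all 3 libraries at 24 h below all 3 at 3 h.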

How the results depend on the processing

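No called value of a member in the time course changed direction under the alternatives run. Values near 0 did change sign under some, namely Cav2 at 3 h and 9 h, Tpm1 for 24 h against 3 h, Cnn1 and Vcl in P20 EMM against Serum/LIF, Vcl between passages in EMM, and Cav1, Cnn1 and Myl9 in contrasts of groups with 1 read or none. Asking also for a change over 2-fold left 4 of 8 higher at 3 h, 1 of 6 higher and 0 of 1 lower at 9 h and at 24 h, and 0 of 2 higher and 2 of 6 lower for 24 h against 3 h. The 1 lower call at 24 h, Myl9, became 2, Srf added, with scaling by library totals, with every gene of at least 1 count kept, with at least 10 counts in every library, the DESeq2 Wald test and a threshold of 0.05, and 0 without Serum/LIF replicate 1 or 24 h replicate 3. With single libraries left out, higher calls numbered 8 to 9 at 3 h, 5 to 7 at 9 h, 4 to 6 at 24 h, and 1 to 2 for 24 h against 3 h (1 without replicate 1 or 3 of 3 h or replicate 1 or 2 of 24 h, which lost Acta2).

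Asking for at least 10 counts in every library removes members by construction. Members lower by over 2-fold against Serum/LIF then numbered 1 (P10 EMM), 4 (P10 2i/LIF), 0 (P20 EMM) and 2 (P20 2i/LIF), those above 2i/LIF in EMM 1 at P10 and 2 at P20, those lower at P20 than P10 0 in Serum/LIF and in 2i/LIF, and those higher at P20 in EMM 0. With only the groups compared, none was lower in P20 than P10 2i/LIF. Without single libraries that count was 1 to 4 (1 without P10 replicate 3) and the count higher 1 to 2 (2 without P10 replicate 1 or 3), and members lower in P10 EMM than 2i/LIF numbered 0 to 1 (1 without P10 EMM replicate 2). Of the counts for the pathway lists, 1011 stayed within 1.5 times, 89 were lower and 40 higher.

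With the replicate block by title number no member count changed, while Srf passed at 24 h (adjusted p = 0.00164) and Myl9 did not (0.0109). With the replicate block by description number 7 were higher at 9 h, and 4 higher and 0 lower at 24 h. Depth limits Cav1 and Cav2, which had 0 or 1 read in several groups.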

Other observations

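The pathway lists in long-term EMM were also counted, in edgeR's fit at an adjusted p under 0.01. As the lists were chosen with earlier results of these data known, the counts are a description. Of all tested genes 18.7% were higher and 18.7% lower in P10 EMM, 13.6% and 12.5% in P20 EMM, and 21% and 23.2% in P20 2i/LIF, and several of the counts below are near or under these shares. In P10 EMM against Serum/LIF none of the 8 YAP and TEAD genes rose and 4 fell (Ccn1, Ankrd1, Amotl2 and Axl), and in P20 EMM 1 rose (Tead1) and 3 fell (Ccn1, Ankrd1 and Axl). Among the 11 focal adhesion partners 1 rose (Tln1) and 3 fell (Ilk, Parva and Bcar1) in P10 EMM, and Parva fell in P20 EMM with none rising. Among the 6 tested caveola partners Cavin1 and Cavin4 rose and Ehd2 fell in P10 EMM, and Ehd2 and Pacsin2 fell in P20 EMM. Among the 5 tested SRF cofactors 1 rose (Elk3) and none fell in P10 EMM, and 1 rose and 1 fell (Elk3) in P20 EMM. Among the 8 tested immediate early genes, Fos and Egr1 fell in P10 EMM and rose in P20 EMM, and Fosb fell in both. In P20 2i/LIF against Serum/LIF none of the YAP and TEAD genes rose and 4 fell, 2 focal adhesion partners rose and 4 fell, none of the caveola partners rose and 1 fell, and 1 SRF cofactor rose. Whether these effects differ between passages was not tested.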
